A study of Rattus norvegicus with 32 samples.

Results

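After transplantation, 6 rat liver libraries (M13, M18, M19, M20, M25 and M26, named by their titles) held high RNA levels of interferon-stimulated genes, and 4 (M7, M11, M12 and M24) held low levels. These 10 of the 32 samples of the study were chosen by measured values, namely the mean log2(FPKM + 1) of interferon-stimulated genes such as Ifit3, Rsad2, Oasl and Gbp2. Differences in gene levels between the high and the low livers are therefore given as a description with no test, and the genes that made the split are no finding. Library M6 lay between both sets and is shown beside them. Both columns headed M5 were left out, since they share a single header.

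The study transplanted livers with macrosteatosis, in which hepatocytes store fat in large droplets, and all libraries were made from liver of male rats of the inbred Lewis strain. Polyadenylated RNA was sequenced from 12 livers labelled pre-transplant, 12 labelled post-transplant and 8 labelled longterm survivor. High and low livers carry the same labels, which state no fat content, treatment, sampling time or age, and they do not say whether each library came from a separate animal, or whether a post-transplant liver was sampled before as well. The 11 pre-transplant columns that could be tied to their group (2 of them headed M16) and the 8 long-term survivor libraries took no part in the split, and serve below as livers in which the same relation could be tested.

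Interferons are cytokines that cells release on sensing viral or displaced nucleic acids, or that activated lymphocytes release. Type I and type III interferons signal through the kinases JAK1 and TYK2 and lead to binding of the interferon-stimulated response element (ISRE) in the promoters of their targets. Type II interferon, the product of Ifng, signals through JAK1 and JAK2. The targets include antiviral effectors, MHC class I molecules that show peptides to CD8 T cells, and immunoproteasome subunits that cut those peptides. Hepatocytes also answer a further cytokine arm, in which interleukin 6 and STAT3 switch on the acute phase proteins of plasma and metallothioneins.

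Reads assigned to genes numbered 16149228 to 17932046 in high livers and 15802817 to 18464388 in low livers (exact permutation test, two-sided, p = 0.610, n = 6 and 4). Genes with at least 1 FPKM (fragments per kilobase of gene length, scaled to library size) numbered 11341 to 11974 and 11292 to 11613 (exact permutation test, two-sided, p = 0.105). They are counted from the same FPKM that made the split, so this comparison is not independent of it. The 10 genes with most reads held 18.3% to 24% of all reads in high livers and 24.3% to 28.6% in low livers, sets that do not overlap. The deposited FPKM also hold a factor between libraries, which was 0.953 to 1.41 in high and 0.783 to 1.08 in low livers. Undoing that factor moved the median difference of all genes from 0.01 to 0.26 on the log2 scale, so calls without it stand beside those with it. Hepatocyte markers were high in all 10 livers, with Alb, serum albumin, between 10768 and 47790.0 FPKM. M20 stood apart by Lcn2, lipocalin 2, at 26.9 FPKM against 1576 to 9473 FPKM in the other livers. That value lay inside the pre-transplant range of Lcn2, 1.55 to 70.1 FPKM. Values without M20 are given where it matters.

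The promoters of 6 genes are shown because they belong to interferon targets, metallothionein and fibrinogen, which the values below turn on. Each is the 250 bases before the transcription start from RefSeq on GRCr8, read 5′ to 3′ on the gene's own strand in lower case, with capitals for the motif searched on both strands. Capitals mark the ISRE (GAAANNGAAA) in Ifit3 (chromosome 1, 241527076 to 241527325, plus strand), Apol9a (chromosome 7, 111028214 to 111028463, minus strand) and Tap1 (chromosome 20, 4668544 to 4668793, minus strand). In Apol9a the capitals cover 2 overlapping matches.
Ifit3: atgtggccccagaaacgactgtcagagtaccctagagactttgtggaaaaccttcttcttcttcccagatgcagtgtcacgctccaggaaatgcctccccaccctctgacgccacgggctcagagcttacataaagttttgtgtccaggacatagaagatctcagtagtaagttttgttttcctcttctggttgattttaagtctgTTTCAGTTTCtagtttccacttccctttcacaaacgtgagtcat
Apol9a: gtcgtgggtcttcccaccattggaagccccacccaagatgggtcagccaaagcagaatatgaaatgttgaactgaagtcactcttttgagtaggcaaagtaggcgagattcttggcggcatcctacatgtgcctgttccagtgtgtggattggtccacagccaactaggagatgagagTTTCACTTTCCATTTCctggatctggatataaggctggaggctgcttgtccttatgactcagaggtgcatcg
Tap1: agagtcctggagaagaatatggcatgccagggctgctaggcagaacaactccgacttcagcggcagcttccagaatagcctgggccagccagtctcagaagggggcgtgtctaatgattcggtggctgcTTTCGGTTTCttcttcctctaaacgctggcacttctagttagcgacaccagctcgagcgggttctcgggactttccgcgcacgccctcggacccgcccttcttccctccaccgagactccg
In Mt2A (chromosome 19, 10838709 to 10838958, minus strand) capitals mark 4 matches to the metal response element (TGCACNC or TGCGCNC).
Mt2A: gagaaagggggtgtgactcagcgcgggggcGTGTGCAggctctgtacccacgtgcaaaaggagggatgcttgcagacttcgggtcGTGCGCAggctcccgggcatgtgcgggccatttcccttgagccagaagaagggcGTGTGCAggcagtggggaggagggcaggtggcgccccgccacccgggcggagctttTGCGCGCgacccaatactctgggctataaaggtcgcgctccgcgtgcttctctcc
In Fgb (chromosome 2, 170700876 to 170701125, minus strand) and Fgg (chromosome 2, 170652833 to 170653082, plus strand) they mark the acute phase response element (CTGGGAA), with 1 match in Fgb and 2 in Fgg.
Fgb: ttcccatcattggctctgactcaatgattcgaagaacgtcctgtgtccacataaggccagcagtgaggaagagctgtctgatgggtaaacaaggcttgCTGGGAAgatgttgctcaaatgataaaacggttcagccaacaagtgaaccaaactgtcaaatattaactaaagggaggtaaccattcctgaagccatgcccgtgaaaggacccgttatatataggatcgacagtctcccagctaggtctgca
Fgg: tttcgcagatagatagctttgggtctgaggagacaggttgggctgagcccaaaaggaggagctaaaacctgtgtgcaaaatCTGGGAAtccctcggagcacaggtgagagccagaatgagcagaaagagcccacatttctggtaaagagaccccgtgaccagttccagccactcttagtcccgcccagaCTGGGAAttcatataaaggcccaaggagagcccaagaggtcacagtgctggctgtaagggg

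An ISRE lay within these 250 bases in 3.29% of the 27457 genes with a promoter in the table, and in 23 of 37 score genes with one (62.2%). Among the genes outside the score that were called higher in high livers, 10 of 25 with a promoter held it (40%). Of the 8557 genes past the filter that have a promoter, score genes included, 2.78% held it. The 10 called genes were Apol9a, Klrk1, Lgals9, Parp12, RT1-N3, RT1-S3, Samd9, Sp110, Tap1 and Trim21. Among genes called lower, 1 of 16 held it, the clock gene Per1 (6.25%). The metal response element was common, in 31.2% of the promoters of these 8557 genes and 21.2% of all promoters, and 4 of 16 genes called lower held it (25.0%), a share near that background. The acute phase element lay in 9.34% of these 8557 genes, in 5 of 25 genes called higher and in 3 of 16 called lower (18.8%), namely Fgb, Fgg and Pid1, while Fga, the gene of the remaining fibrinogen chain, had 0 matches. A further motif searched, GAS (TTCNNNGAA), had 1 match each in Fga and Fgb. It lay in 5.81% of the 8557 genes, 9 of 37 score genes (24.3%), 2 of 25 called higher (8.0%) and 3 of 16 called lower (18.8%). A match is a stretch of letters, not a site of binding.

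The score that follows the split is the mean log2(FPKM + 1) of 47 interferon-stimulated genes, of 50 listed and 48 found in the table. It stood at 4.30 in M13, 4.29 in M18, 4.72 in M19, 4.51 in M20, 4.78 in M25 and 4.69 in M26. In the low livers it was 3.21 in M7, 2.92 in M11, 2.88 in M12 and 2.54 in M24, and in M6 it was 3.43. Pre-transplant libraries lay between 2.77 and 3.45 and long-term survivors between 2.89 and 3.03, so that 3 low livers lay inside the pre-transplant range and M24 below it. Of the 47 genes, 39 did not overlap between the sets and 37 were also at least 2-fold apart on log2(FPKM + 1), which the split itself set.

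**Figure D1:**
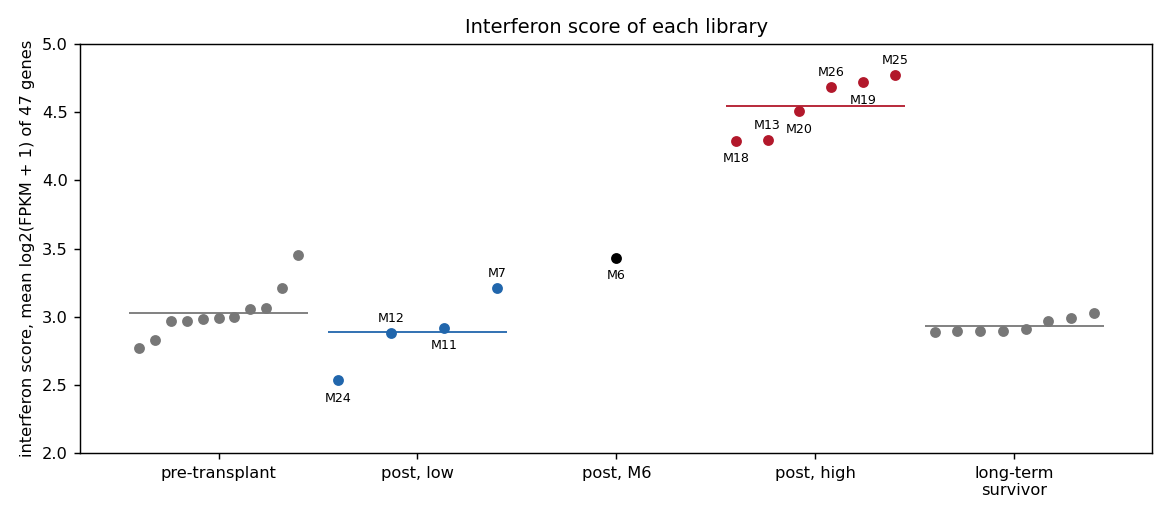
Interferon score (mean log2(FPKM + 1) of 47 genes) of each library, by group, with the mean of each group as a line. The 6 high livers lie between 4.29 and 4.78, above M6 at 3.43 and above the pre-transplant libraries at 2.77 to 3.45, while the low livers lie between 2.54 and 3.21.

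Ifit3, an antiviral protein, ran from 16.7 to 40.2 FPKM with a median of 23.6 in high livers, against 5.67, 3.86, 3.29 and 1.25 FPKM in M7, M11, M12 and M24. Irf7, the transcription factor that amplifies type I interferon production, spanned 84.1 to 195 FPKM in high and 3.80 to 24.9 FPKM in low livers, a difference of 3.25 on log2(FPKM + 1). Rsad2, viperin, spanned 5.27 to 14 against 0.381 to 2.09 FPKM, and Oasl, a relative of the oligoadenylate synthetases, 11.5 to 30.1 against 2.34 to 6.71 FPKM. The GTPase genes Gbp2 and Igtp, which act against intracellular microbes, spanned 14.9 to 202 against 3.68 to 13.3 FPKM and 48.3 to 143 against 20.7 to 43.9 FPKM. For Gbp2 the upper end was M25 alone at 202 FPKM, with the other high livers at 14.9 to 21 FPKM. Ifi27 and Bst2, the latter tetherin, were abundant before transplantation as well and overlapped between the sets (568 to 1238 against 178 to 750.1 FPKM for Ifi27).

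The genes of the interferons themselves were mostly listed at 0 or at low values, which does not show that their RNA was absent. Fth1, the ferritin heavy chain that every cell uses, is also listed at 0 in all livers, and copies of a gene family such as Ifna may lose shared reads. Ifna2, Ifna4 and Ifnl3, which encode type I and type III interferons, were listed at 0 in all 10 livers and in M6, and Ifnb1 was listed above 0 in M13 alone, at 0.181 FPKM. Ifng was at 1.94 FPKM in M25 and 0.107 FPKM in M20, and at 0 in the other 8 livers. The receptor genes overlapped: Ifnar1 spanned 12.6 to 28.2 FPKM in high and 15.2 to 24.5 FPKM in low livers, and Ifngr1 24.9 to 59.6 and 36.9 to 45 FPKM. So did the kinase genes Jak1 (48.3 to 59.6 and 37.6 to 61.8 FPKM), Jak2 and Tyk2.

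Of 31 genes of the interferon pathway outside the score, 23 passed the filter of 1 FPKM in at least 4 of the 10 livers, and 4 of these were higher in high livers without overlap. They were Adar, the editor of double-stranded RNA, Tlr3, a sensor of such RNA, Trex1, a DNA exonuclease, and Tbk1, a kinase of the sensing pathway. Adar ran from 16.2 to 20.9 FPKM with a median of 17.1 in high livers and stood at 11.3, 7.20, 9.53 and 7.21 FPKM in M7, M11, M12 and M24, a difference of 0.96 on log2(FPKM + 1) with a pooled SD of 0.21. Tlr3 ran from 5.49 to 8.30 FPKM with a median of 6.81 in high livers and stood at 2.91, 3.51, 4.13 and 4.74 FPKM in the low ones (0.70). Over all genes, 1.45% were higher in high livers without overlap at any fold. The median difference of the 23 genes was 0.18, against 0.01 for all genes tested.

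Values in parentheses after gene names are from here on differences of high minus low livers in mean log2(FPKM + 1). Outside the score, 46 of the 11839 genes compared were called higher in high livers, meaning at least 2-fold on log2(FPKM + 1) with no overlap (0.389%), and 25 were called lower (0.211%). Without the factor between libraries 82 were called higher and 8 lower, so the share of higher calls moved from 64.8% to 91.1%. The 46 higher calls were all among those 82, while 7 of the 25 lower calls were among those 8. The counts also moved with single libraries: without M24, the lowest liver by score, 124 were called higher and 58 lower, with 45 and 24 of the original calls among them. Lower calls numbered 55 without M7, 43 without M11, 40 without M13 and 39 without M19. Without M20 the counts were 56 and 27, and without M25 they were 45 and 32. Nearest to the threshold lay Sp110 (1.01), Mov10 (1.01) and Tjp3 (1.03) inside it, and Mlkl (0.999), Ube2l6 (0.997) and Ackr3 (-0.981) outside it. Many of the higher genes are known interferon targets in other species, and they bring no support to the split that picked them.

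The greatest difference was in Ly6c (ENSRNOG00000061813), a surface protein of monocytes and endothelium. It stood at 19.3 FPKM in M13, 16.9 in M18, 20.7 in M19, 13.1 in M20, 66.6 in M25 and 35.1 in M26, against 11.3, 0.144, 1.01 and 2.28 FPKM in M7, M11, M12 and M24 (3.04 on log2(FPKM + 1) with a pooled SD of 1.11). The gene lies on an unplaced scaffold of the files' build. M7 stood nearest to the high livers, and the pre-transplant range was 1.36 to 5.68 FPKM. Its relative Ly6e (ENSRNOG00000007091, chromosome 7, 116355698 to 116359862), a membrane protein that limits virus entry in other species, ran from 40.0 to 78.9 FPKM with a median of 51 in high livers. In the low livers it stood at 14.8, 21, 8.86 and 11.2 FPKM (1.95 on log2(FPKM + 1) with a pooled SD of 0.44). All 6 high livers lay above the pre-transplant range of Ly6e, 7.54 to 18.6 FPKM, as they did for Ly6c.

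Samd9 (ENSRNOG00000052444, chromosome 4, 28305002 to 28310178), an antiviral factor of the cytoplasm, ran from 5.79 to 19.8 FPKM with a median of 6.41 in high livers and stood at 2.02, 1.33, 1.13 and 0.907 FPKM in the low ones (1.99). Slfn4 (ENSRNOG00000057092, chromosome 10, 70411738 to 70435156), a Schlafen family gene induced in myeloid cells of mice, ran from 12.9 to 30.5 FPKM with a median of 20.2, against 4.22, 7.88, 6.08 and 1.92 FPKM (1.91). Neither overlapped between the sets. Apol9a (ENSRNOG00000023410, chromosome 7, 118927008 to 118933812), an apolipoprotein L gene, ran from 29.6 to 92.6 FPKM with a median of 43.3 in high livers and stood at 17.9, 12.5, 7.09 and 9.39 FPKM in M7, M11, M12 and M24 (2.12). Here the low livers lay below the pre-transplant range of 20.8 to 36 FPKM, and the high livers reached from inside it to above it.

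MGC108823 (ENSRNOG00000019542, chromosome 18, 55576239 to 55584957) and LOC100910979 (ENSRNOG00000048302, chromosome 18, 55463308 to 55464632), whose symbols name no function, ran from 4.0 to 31.1 FPKM and from 2.92 to 22.5 FPKM in high livers. Their levels were 2.62, 1.85, 2.55 and 0.439 FPKM and 1.96, 0.976, 0.945 and 0.226 FPKM in M7, M11, M12 and M24. For both, M13 was the lowest high liver and M24 the lowest of all. Klrk1 (ENSRNOG00000061739, chromosome 4, 163393217 to 163403653), the activating receptor NKG2D of NK and T cells, ran from 5.71 to 11.6 FPKM with a median of 8.27 in high livers and stood at 1.77, 2.47, 1.35 and 0.322 FPKM in the low ones (1.99). The remaining genes among the 12 with the greatest differences were RT1-T24-3, AC128859.3, AABR07059663.1 and AABR07018078.1, at 1.98 to 2.11. Further called genes included Uba7, the enzyme that starts ISG15 conjugation (1.73), Rnf213 (1.72), the nuclear body protein Pml (1.35) and Parp12 (1.33). The lectin gene Lgals9 (1.13) and the antibody receptor Trim21 (1.11), also called, were chosen for naming after their values were seen, as were these 4.

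**Figure D2:**
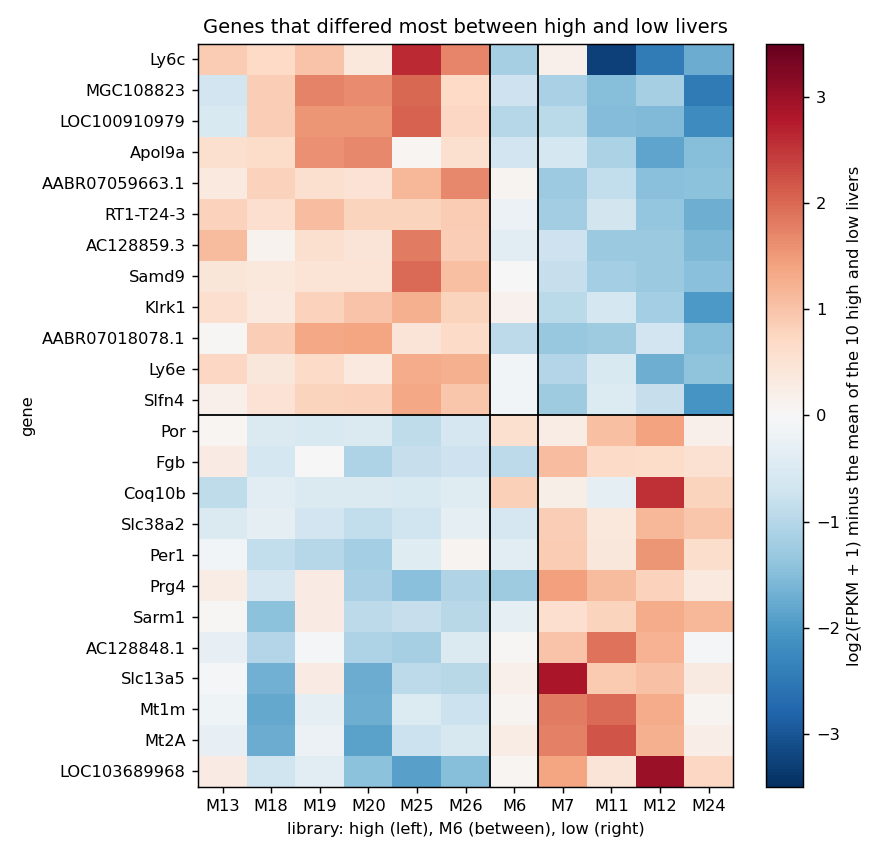
Heat map of log2(FPKM + 1), as the difference from the mean of the 10 high and low livers, for the 12 genes with the greatest higher and the 12 with the greatest lower differences; columns are the 6 high livers, M6 and the 4 low livers. Ly6c heads the higher genes (3.04) and LOC103689968 ends the lower ones (-2.32), and M6 is shown between the sets, with Fgb at 2222 FPKM near the high livers and Ly6c at 3.92 FPKM near the low ones.

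MHC class I and peptide loading genes were the list outside the score with the most called members. Of 18 genes past the filter (21 in the table), 4 were called higher, against 0.389% of all genes, and the median difference was 0.67. Tap1 (ENSRNOG00000000457, chromosome 20, 3979035 to 3989669), which carries peptides into the endoplasmic reticulum, ran from 20.7 to 70.4 FPKM with a median of 26 in high livers and stood at 19.5, 8.62, 7.89 and 8.58 FPKM in M7, M11, M12 and M24 (1.45 on log2(FPKM + 1) with a pooled SD of 0.61). M7 at 19.5 FPKM lay just below the lowest high liver, M13 at 20.7 FPKM. The class I gene RT1-T24-4 spanned the narrow range of 20.8 to 24.4 FPKM in high livers, against 8.43, 9.78, 7.26 and 6.4 FPKM in the low ones (1.38). RT1-N3 ran from 5.83 to 13.1 FPKM with a median of 8.75, against 2.56, 3.23, 1.12 and 2.29 FPKM (1.64). RT1-S3 ran from 157 to 391 FPKM with a median of 298, against 153, 134, 113 and 21.9 FPKM, with M24 far below the other low livers (1.71). Near-identical rat class I genes may share reads, as may the genes of the Apol and Oas1 families, so how a value falls among such copies is uncertain.

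Some interferon-gamma targets and lymphocyte genes were far higher in M25 than in the other high livers. Cxcl9, a chemokine that draws T cells, was at 394 FPKM in M25, 2.87 to 24.9 FPKM in the low livers and 7.46 to 16.9 FPKM in the other high livers. Irf1, a transcription factor that interferon gamma induces, was at 94 FPKM in M25 and 33.7 FPKM in M7, with the other high livers at 14.0 to 22.7 FPKM. The immunoproteasome genes overlapped in all 4 cases past the filter, with Psmb10 at 121 FPKM in M25, 33.2 to 55 FPKM in the low livers and a median of 60.7 FPKM in the high ones. For Psmb8 and Psmb9 the overlap rested on M13, at 16.4 and 41.8 FPKM. The other high livers stood at 27.5 to 39.2 and 54.9 to 181 FPKM. Low livers stood at 16 to 18.2 and 20.8 to 45.2 FPKM, so these 2 genes were not high in M25 alone. MHC class II genes and Cd74, the invariant chain, overlapped in all 7 cases, with Cd74 at 57.6 to 565 FPKM in high and 76 to 220.2 FPKM in low livers. The upper end of Cd74 was M25, and M6 stood near it at 527 FPKM.

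Markers of immune cells moved with single libraries. Summed as mean log2(FPKM + 1), the 6 NK and cytotoxic markers past the filter (of 16) stood at 4.19 in M25, 1.57 to 2.49 in the other high livers and 1.21 to 2.20 in the low ones, and 1 of them, Klrk1, did not overlap, where 1.45% of all genes were higher without overlap. The 8 T cell markers past the filter (of 23) stood at 3.17 in M25, 1.52 to 2.12 in the other high livers and 1.65 to 1.88 in the low ones, while M6 reached 2.72. Lck, a kinase of T cells, alone among them did not overlap (1.34 to 5.54 against 0.947 to 1.32 FPKM), and the defining marker Cd3e was at 0.0669 to 2.16 FPKM and 0.0666 to 0.507 FPKM. In bulk tissue, fewer cells of a type and less RNA per cell cannot be told apart. For the 27 recruited monocyte and macrophage markers past the filter (of 28) the mean level was 5.07 to 6.50 in high and 4.89 to 5.57 in low livers. Ly6c alone among them was called higher, where 0.389% of all genes were. Neutrophil markers (13 past the filter, of 22) spanned 2.15 to 5.48 and 3.07 to 4.65, with no member free of overlap. The part of these cells in the differences between the sets was not tested.

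Among 15 Kupffer cell markers past the filter (of 16), 1 was called higher, against 0.389% of all genes: Siglec1, the sialic acid receptor of macrophages that type I interferon induces. Siglec1 ran from 5.46 to 15.4 FPKM with a median of 8.33 in high livers and stood at 2.36, 4.09, 3.63 and 3.71 FPKM in the low ones (1.15), while the list as a whole had a median difference of 0.11. Of 21 genes of regulated cell death and the inflammasome past the filter (of 22), 3 were higher without overlap, against 1.45% of all genes. Casp1, the caspase of the inflammasome, ran from 7.99 to 24.5 FPKM with a median of 9.81, against 5.71, 5.43, 4.81 and 5.35 FPKM in the low livers (0.96). Casp8, the apoptotic initiator, ran from 5.23 to 9.21 FPKM with a median of 5.43, against 3.06, 2.73, 2.70 and 4.19 FPKM (0.74). Mlkl, the executor of necroptosis, ran from 4.33 to 7.05 FPKM with a median of 6.16, against 3.51, 2.28, 1.78 and 2.61 FPKM (1.00). Tnfrsf1a, a receptor of TNF, was 1 of the 21 that was lower without overlap (1.29% of all genes were), at 56.7 to 82.5 against 84 to 109 FPKM (-0.49).

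Metallothioneins, small proteins that bind zinc and copper, stood beside fibrinogen among the abundant genes called lower in high livers. Mt2A (ENSRNOG00000043098, chromosome 19, 11307967 to 11308740) ran from 609 to 1938 FPKM with a median of 1433 in high livers and stood at 7624, 10403, 5286 and 2638 FPKM in M7, M11, M12 and M24 (-2.26 on log2(FPKM + 1) with a pooled SD of 0.78). M24 was the low liver nearest to the high ones, and M6 at 2672 FPKM lay just above M24. In pre-transplant libraries the range was 23.3 to 774 FPKM, so all 4 low livers lay above it, while M18 and M20 among the high livers lay inside it. Mt1m (ENSRNOG00000028841, chromosome 20, 3677474 to 3677847) ran from 1.86 to 7.91 FPKM with a median of 5.48, against 34.1, 38, 23.2 and 9.62 FPKM (-2.16). AC128848.1 ran from 1047 to 2254 FPKM with a median of 1393, against 4659.8, 8762, 5460.3 and 2281 FPKM (-1.71), and its values follow Mt2A closely enough that reads shared between copies cannot be told apart. Without the factor between libraries all 3 were still called, at -1.97, -1.91 and -1.41. Mt1 overlapped and was not called, at 179 to 471 FPKM in high and 398 to 1923 FPKM in low livers (-1.85).

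Slc39a14 (ENSRNOG00000009832, chromosome 15, 51982982 to 52029816), which encodes the zinc and iron importer ZIP14 of hepatocytes, ran from 48.1 to 82.1 FPKM with a median of 62.3 in high livers and stood at 150.0, 115, 164 and 134 FPKM in the low ones (-1.09 on log2(FPKM + 1) with a pooled SD of 0.27). The sets lay well apart, with M6 at 87.4 FPKM just above the highest high liver. Without the factor between libraries the difference was -0.80, still free of overlap but under 2-fold. In the list of NRF2 targets and metallothioneins, 2 of 15 genes past the filter, Mt2A and Slc39a14, were called lower, against 0.211% of all genes. The other 13 overlapped, and the list's median difference was 0.12.

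**Figure D3:**
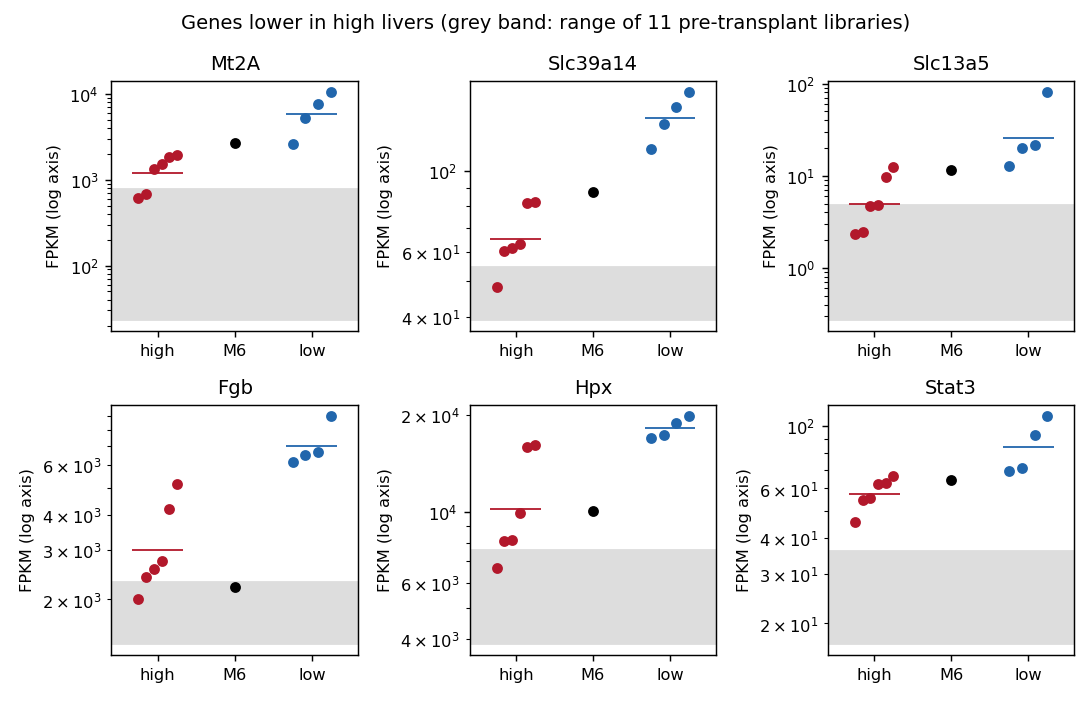
FPKM on log axes of 6 genes lower in high livers, by liver, with the geometric mean of each set as a line and the range of the 11 pre-transplant libraries as a grey band. Each gene is free of overlap between the 6 high and the 4 low livers, as for Mt2A with 609 to 1938 against 2638 to 10403 FPKM, and all low livers lie above the grey band in each panel.

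Fibrinogen, the plasma protein that forms clots, is built of chains whose 3 genes lie side by side on chromosome 2, and all 3 were called lower in high livers. Fga (ENSRNOG00000024848, chromosome 2, 182006242 to 182013763) ran from 2537 to 6587 FPKM with a median of 3592 in high livers and stood at 10475, 7879, 8679 and 7755 FPKM in M7, M11, M12 and M24 (-1.13). Fgb (ENSRNOG00000007092, chromosome 2, 182027115 to 182038178) ran from 2008 to 5159 FPKM with a median of 2646, against 8969, 6675, 6532 and 6141 FPKM (-1.22 on log2(FPKM + 1) with a pooled SD of 0.44). Fgg (ENSRNOG00000025074, chromosome 2, 181987217 to 181994514) ran from 3582 to 8857 FPKM with a median of 4888, against 14821, 10061, 10738 and 10632 FPKM (-1.06). M13 was the high liver nearest to the low ones for each chain, and M20 the lowest. M6, left out of both sets with a score nearer to the low livers, lay among or below the high livers for all 3 chains, at 2999, 2222 and 4066 FPKM. Without the factor between libraries the differences were -0.83, -0.93 and -0.76, against 0.26 for the median gene, and all 3 chains overlapped. The within-run difference was small in M13 against M11 and M12 (-0.33, -0.36 and -0.23) and larger in M25 and M26 against M24 (-1.20, -1.31 and -1.20).

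The acute phase list as a whole leaned the same way. All 25 genes passed the filter and all 25 had a mean below that of the low livers. The list's median difference was -0.83, or -0.68 without M20 and -0.54 without the factor between libraries, where the median gene stood at 0.26. Within the runs it was -0.33 for M13 against M11 and M12 and -1.08 for M25 and M26 against M24. Only 4 of the 25 were free of overlap, against 1.29% of all genes lower without overlap: the 3 fibrinogen chains and Hpx. Without the factor between libraries all 4 overlapped, with Hpx at -0.54. Hpx, hemopexin, which clears heme, ran from 6684 to 16131 FPKM with a median of 9003 in high livers and stood at 19858, 16948, 18834 and 17321 FPKM in the low ones (-0.84). M13 and M19 reached close to the low livers for Hpx, and M6 was at 10042 FPKM. The mean level of the list was 9.12 in M20, 9.87 to 10.84 in the other high livers, 10.06 in M6 and 10.73 to 11.19 in the low livers. Pre-transplant libraries stood at 8.39 to 8.87. So uniform a direction was not particular to this list. Means were also lower in high livers for 13 of 13 mitochondrially encoded genes (median difference -0.41) and 21 of 22 hepatocyte secreted proteins (-0.45). The same held for 34 of 36 cytosolic ribosomal proteins (-0.24).

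Stat3, the transcription factor that relays interleukin 6, was lower without overlap, at 45.7 to 66.7 FPKM in high livers and 69.4, 70.9, 108.1 and 92.8 FPKM in the low ones (-0.54). Its feedback inhibitor Socs3 overlapped, with M20 at 13.3 FPKM, the other high livers at 32.9 to 49.5 FPKM and the low livers at 90.2, 22.6, 61.1 and 105.3 FPKM. Of 11 genes of interleukin 6 family signalling past the filter (of 15), Stat3 alone was free of overlap, against 1.29% of all genes lower without overlap, and the list's median difference was -0.54. All 10 livers lay above the pre-transplant range of Stat3, 17 to 36 FPKM.

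Further genes called lower belong to no common list. Slc13a5 (ENSRNOG00000014870, chromosome 10, 58810058 to 58834538), which carries citrate into hepatocytes, ran from 2.34 to 12.5 FPKM with a median of 4.76 in high livers and stood at 80.1, 19.8, 21.6 and 12.8 FPKM in M7, M11, M12 and M24 (-2.13 on log2(FPKM + 1) with a pooled SD of 0.94). The gap was narrow, from 12.5 FPKM in M19 to 12.8 FPKM in M24, and M7 stood far above the rest. Slc38a2 (ENSRNOG00000006305, chromosome 7, 138088649 to 138100841), a carrier of neutral amino acids, spanned 18.7 to 27.6 FPKM in high livers, against 63.2, 45.2, 77.8 and 69.2 FPKM in the low ones (-1.40 on log2(FPKM + 1) with a pooled SD of 0.26). These sets lay far apart, and the call held without the factor between libraries (-1.12), as did that of Slc13a5 (-1.87).

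Por (ENSRNOG00000001442, chromosome 12, 23998411 to 24046814), the reductase that hands electrons to the cytochromes P450, ran from 30.8 to 60.8 FPKM with a median of 40.2 in high livers and stood at 69.2, 121, 156 and 65.8 FPKM in the low ones (-1.22). Of 26 genes of the cytochrome P450 list past the filter (of 28), Por alone was free of overlap and called lower, where 1.29% and 0.211% of all genes were, so 1 of 26 is near the background. Coq10b, a coenzyme Q binding protein, ran from 12.8 to 19 FPKM with a median of 17.1, against 28.5, 19.5, 151 and 43.2 FPKM, with the highest value in M12 (-1.34). Per1, a repressor of the circadian clock, ran from 1.24 to 4.46 FPKM with a median of 2.3, against 8.36, 5.70, 13.9 and 6.71 FPKM (-1.43). Of 16 clock genes past the filter, Per1 alone was called lower, where 0.211% of all genes were, and the other 15 overlapped. Prg4, lubricin, spanned 18.2 to 62.6 against 65.4 to 142 FPKM (-1.54), and Sarm1, an enzyme that degrades NAD, 1.79 to 8.15 against 10.3 to 17.6 FPKM (-1.58). LOC103689968, with no function in its symbol, had the greatest difference of all lower genes (-2.32), at 0.492 to 5.81 against 6.61 to 43.9 FPKM. Under 2-fold but free of overlap were Irs2, an adaptor of the insulin receptor (-0.84), Zfp36, which destabilises cytokine transcripts (-0.67), and Flt1, a VEGF receptor of endothelium (-0.35). Without the factor between libraries Coq10b (-1.06), Per1 (-1.19) and LOC103689968 (-2.13) overlapped and were no longer called. Por was then free of overlap but under 2-fold (-0.93), while Prg4 (-1.25) and Sarm1 (-1.34) were still called.

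Most lists of liver function overlapped throughout. No member was free of overlap among 22 hepatocyte secreted proteins (median difference -0.45), 16 hepatocyte transcription factors (-0.18) or 30 genes of fatty acid oxidation and ketogenesis (0.03). The same held for 22 genes of fatty acid and triglyceride synthesis (0.16), 25 of cholesterol synthesis (-0.20), 20 of bile acids (0.01) and 33 nuclear respiratory chain subunits (-0.06). Among 24 genes of the urea cycle and amino acid catabolism 22 had a lower mean in high livers (-0.48), and all overlapped. Tdo2, which opens the tryptophan ring, was among the greater differences that overlapped, with 146 to 522 FPKM in high and 504 to 1103 FPKM in low livers (-1.61).

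Cell cycle genes had a higher mean in high livers for 29 of 30 members past the filter, with a median difference of 0.96, but all 30 overlapped. Their mean log2(FPKM + 1) was 4.28 in M13 and 1.58 in M20 among high livers, and 3.74 in M24 but 1.09 to 1.54 in the other low livers. At the level of the list the overlap rested on M24, since the other low livers lay below the lowest high liver. Within the runs the median was 2.86 for M13 against M11 and M12 and -0.56 for M25 and M26 against M24. Matrix and stellate cell genes overlapped in all 29 cases as well (0.53).

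**Figure D4:**
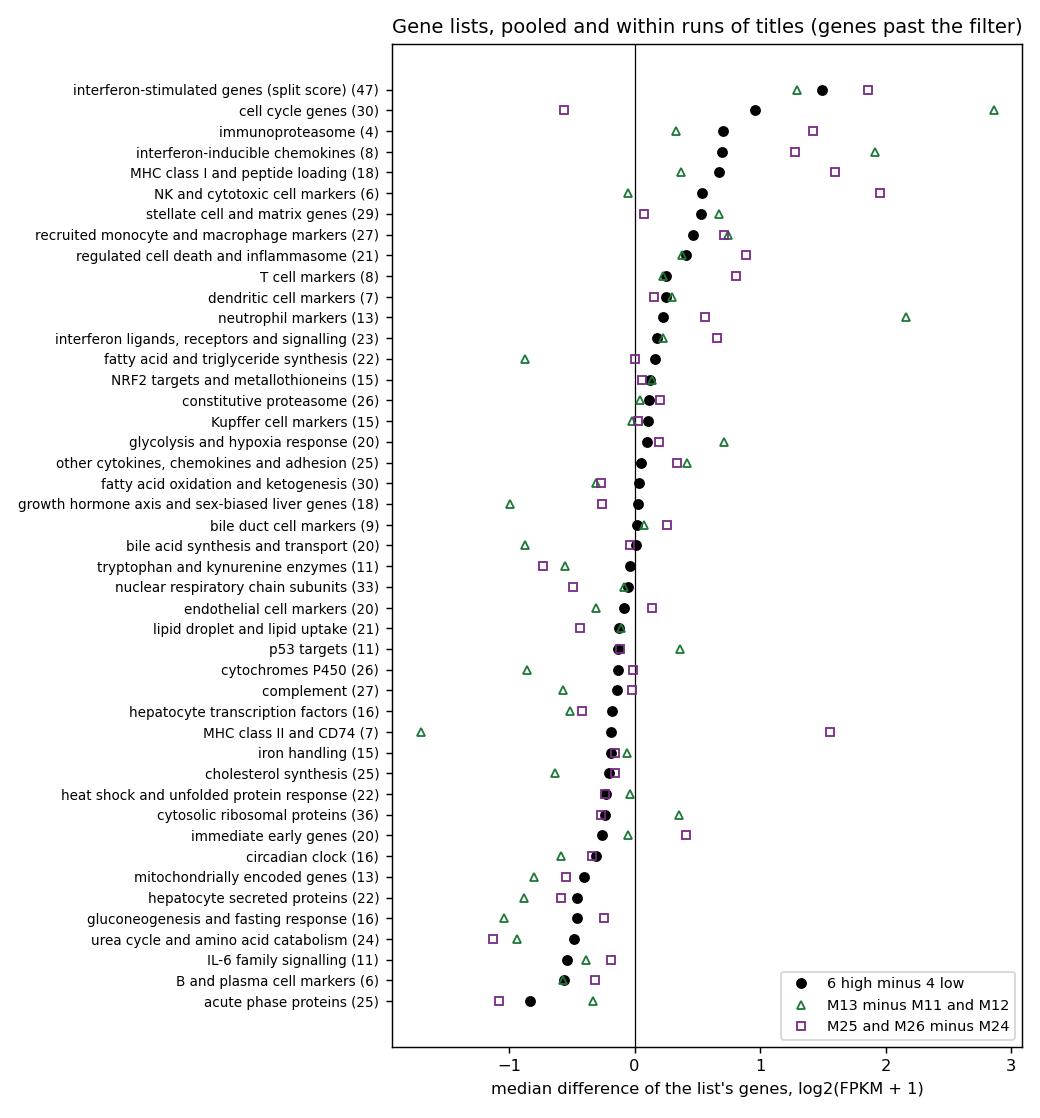
Median difference of the genes of each list past the filter (numbers in parentheses) on log2(FPKM + 1), for all 6 high against 4 low livers (filled circles), M13 against M11 and M12 (triangles) and M25 and M26 against M24 (squares); lists with at least 4 genes are shown. The score genes lead by construction at 1.496, the acute phase list lies lowest at -0.83, and lists such as cell cycle genes differ in sign between the runs (2.86 and -0.56).

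The titles fall into runs of consecutive numbers, and the labels do not say what a run is. All 3 libraries of M18 to M20 were high, so for them run and interferon level cannot be told apart. Both kinds occurred in M11 to M13 (M13 high) and in M24 to M26 (M25 and M26 high). Of the 46 genes called higher, 27 were at least 2-fold higher in M13 than in M11 and M12, 41 in M25 and M26 than in M24, and 25 in both. Of the 25 called lower, 13, 15 and 5 were at least 2-fold lower in these runs. The same libraries made the calls, and a call without overlap fixes the direction within each run. These counts are therefore a description and no replication, and the share over all genes was not counted. Ly6c differed by 3.74 and 3.91 in the runs, Ly6e by 1.85 and 2.68, and Tap1 by 1.23 and 2.26. Mt2A differed by -2.0 and -0.88, Slc38a2 by -1.28 and -1.50, and Slc39a14 by -0.73 and -1.11. RT1-S3 differed little in the first run and much in the second (0.35 and 3.70). Without the 3 libraries of M18 to M20, 182 genes were called higher and 77 lower, since fewer libraries overlap less often, and 40 and 21 of the original calls were among them.

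The called genes were also set against livers before transplantation. The call itself fixes which set is the upper one, the high livers for higher genes and the low livers for lower ones. The share over all genes was not counted, so the counts here only describe the called genes. For 31 of the 46 higher genes, all 6 high livers lay above the whole pre-transplant range, and for 0 did all 4 low livers. For 8 of them, among which Apol9a, all 4 low livers lay below that range. For 16 of the 25 lower genes all 4 low livers lay above the pre-transplant range, and for 1 all 6 high livers did. So Mt2A, Slc39a14 and fibrinogen were above the levels before transplantation in all low livers, and nearer to them in the high ones. Most high livers lay above the pre-transplant range as well. For Slc39a14 and each fibrinogen chain 5 of 6 did, with M20 the exception, and for Mt2A 4 of 6 did.

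Whether the same genes go with the interferon score in livers that the split did not use was tested among the 11 pre-transplant libraries. Their score spanned only 2.77 to 3.45, and for each gene a slope of log2(FPKM + 1) on the score was fitted with limma. Since the labels do not say that the libraries came from separate animals, its p-values measure the spread between these libraries, which may be technical. Of 11309 genes tested, 0 passed a limma adjusted p of 0.05 (0%), with 825 at an unadjusted p under 0.05 and 0 also by voom on the recovered reads. With the score made of Ifit3, Rsad2, Oasl and Gbp2 alone, 402 genes rose and 366 fell with it. Ly6c, the gene with the greatest difference among post-transplant livers, had the smallest p among genes with a positive slope, 2.07 ± 0.38 per unit of score (SE, n = 11, limma adjusted p = 0.476, unadjusted 0.000139). Other small p among positive slopes were those of Bhmt, a methyltransferase of betaine metabolism (4.20 ± 0.77), Mrps27 (1.13 ± 0.21) and Slc11a1 of phagocytes (1.67 ± 0.36). Among negative slopes they were those of Slc6a9, a glycine carrier (-3.86 ± 0.64), Foxa3, a hepatocyte transcription factor (-2.09 ± 0.41), and the hormone gene Fgf21 (-5.55 ± 1.23). Limma adjusted p was 0.476 to 0.651 for these genes.

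Of the 46 genes called higher in high livers, 43 could be fitted before transplantation, and 39 had a positive slope, 25 of them at an unadjusted p under 0.05. Over all 10942 genes compared in both groups, 5365 slopes were positive, 474 of them at that p, and the median slope was -0.01 against 0.99 for the 43. Lists of immune genes that mostly overlapped between high and low livers had slopes as large: the median was 1.38 for recruited monocyte and macrophage markers (10 of 25 positive at that p), 2.96 for MHC class II and CD74 (5 of 6) and 1.03 for the immunoproteasome (3 of 4). Slopes of this size are thus not particular to the 43 genes. With macrophage markers as a further term, an alternative chosen after seeing the data, the slope was 2.24 for Ly6c, 0.97 for Ly6e, 1.14 for Samd9 and 1.25 for Tap1, and 0 genes passed the limma adjusted threshold. Slopes moved either way with that term. Klrk1 went from 1.59 to 0.56 and Slfn4 from 1.84 to 0.77, while MGC108823 went from 1.02 to 2.87 and LOC100910979 from 0.90 to 2.50. Without that term, examples besides Ly6c were RT1-T24-4 (0.97 ± 0.22, unadjusted limma p = 0.000929), Ly6e (1.68 ± 0.42, 0.00172), Samd9 (1.57 ± 0.46, 0.00527) and Tap1 (0.80 ± 0.32, 0.0283). None of them passed the adjusted threshold. Of the 25 genes called lower, 23 could be fitted, with 6 positive and 17 negative slopes, 0 of them at an unadjusted p under 0.05, and a median of -0.18. Mt2A had a slope of -0.76 ± 3.14, Fgb -0.22 ± 0.47 and Slc39a14 0.24 ± 0.30 (limma adjusted p = 0.971, 0.944 and 0.889). With errors of this size, a relation of these genes to the score before transplantation was not detectable in these libraries. With the macrophage term their slopes were -10.24 for Mt2A, 0.77 for Fgb and -0.32 for Slc39a14 (limma adjusted p = 0.260, 0.644 and 0.808). The slope of Mt2A thus depended strongly on that term.

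**Figure D5:**
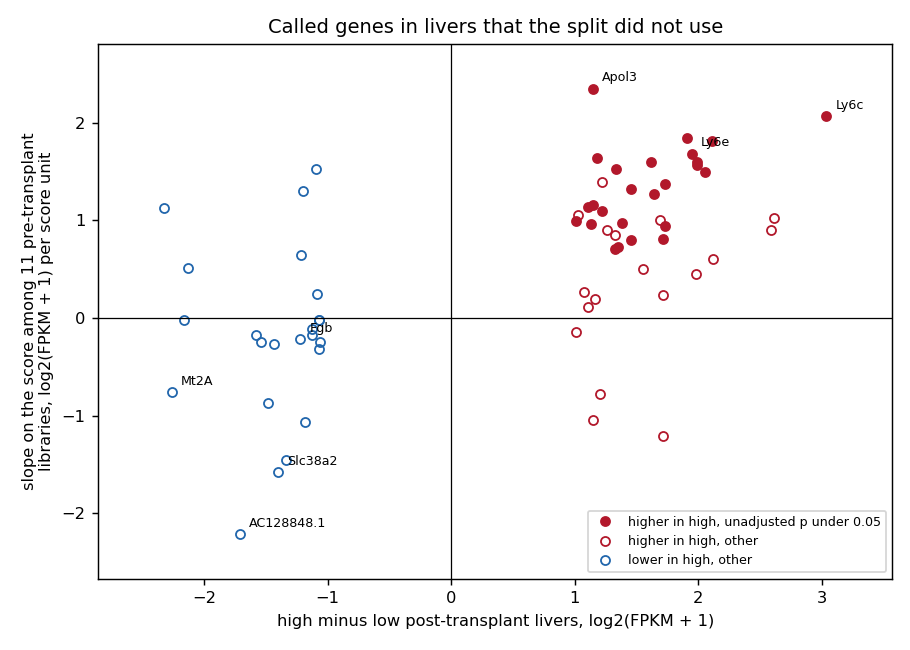
Difference between high and low post-transplant livers (x axis, log2(FPKM + 1)) and limma slope on the interferon score among the 11 pre-transplant libraries (y axis, log2(FPKM + 1) per unit of score) for the called genes that could be fitted in both. Of the 43 genes higher in high livers 39 lie above 0 on the y axis, and of the 23 lower ones 17 lie below it, with no filled symbol (unadjusted p under 0.05) among the lower ones.

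In long-term survivor livers the score spanned only 2.89 to 3.03. M103 with M107 and M104 with M108 differed far less in their reads (chi-square per degree of freedom 3.135 and 3.447) than any other pair (27.6 or more) and were averaged. Over the 6 libraries that this left, 0 of 10557 genes passed a limma adjusted p of 0.05 (0%), with 336 at an unadjusted p under 0.05, a number that was 703 without M101 and 213 without M102. The smallest p belonged to LOC691427 (limma adjusted p = 0.141). So narrow a span of the score leaves slopes with large errors, such as -3.20 ± 2.03 per unit of score for Ly6c.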

How the data were processed

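Polyadenylated RNA of rat liver was sequenced, and the authors deposited 1 table of FPKM per gene for the whole series. The values are FPKM by the authors, checked from their steps: times gene length, they are whole reads in 100% of values of up to 5000 reads (tolerance 0.02 reads), with a scaling between libraries. Per the submitters' processing notes HISAT2 2.0.5 and the builds mm10 and Rnor_6.0 were used. Not given in the sources used here are the role of mm10, a mouse build, the annotation release, the read counter with its strand setting, and how FPKM were scaled. Coordinates of genes are those of the table.

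Of 32 columns 30 were used, and 2 headed M5 were not. The 32883 Ensembl genes were kept and 1218 unannotated ones left out. Values were taken as log2(FPKM + 1), for genes that reached 1 FPKM in 4 or more of the 10 high and low livers. High and low livers were picked on measured values, and the members and the 47 gene lists were chosen with earlier results of these data known, so no test compares them. A gene was called when the sets differed at least 2-fold without overlap. Named genes were the 12 with the greatest difference in each direction with a mean of at least 5 FPKM in the higher set, up to 4 members of each list without overlap, or else up to 2 of highest level, pathway genes by role and markers of the score. Others are illustrations chosen after their values were seen, among them Tdo2, Cd3e, Lcn2, Socs3, Cxcl9, Irf1 and Psmb10. Reads and gene numbers were compared by exact permutation tests (SciPy 1.17.1). Slopes on the score were fitted with limma 3.58.1 (trend, robust, two-sided) under R 4.3.3, with Benjamini-Hochberg adjustment at 0.05 over all genes tested, and the script was tested on simulated data. Tables were handled with Python 3.11.15, numpy 2.4.6 and pandas 2.3.3. Promoters are those of the first listed start of each gene in RefSeq (GRCr8). Alternatives were another pseudocount, no filter, other scalings, 1.5-fold, voom on the recovered reads, and leaving out libraries.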

Additional observations from a re-analysis of the deposited data

Results flagged for a closer look

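In 210 sets of values (named genes and list levels, within the high or within the low livers) 20 had a highest or lowest library far from the rest by Dixon's criterion. For sets chosen beforehand and independent of each other, chance would give about 1 in 20. Some of these genes were named after their values were seen, and lists share genes. The number 20 is therefore no measure of an excess over chance. M25 was that library 8 times, M20 4 times, M24 and M7 3 times each, and M13 and M11 once each.

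M25 was the highest of the high livers for some genes that interferon gamma induces and for lists of lymphocyte markers. Gbp2 was at 202.0 FPKM there (others 14.9 to 21 FPKM), Irf1 at 94.03 FPKM (others 14 to 22.7 FPKM), Cxcl9 at 393.8 FPKM (others 7.46 to 16.9 FPKM) and Casp8 at 9.207 FPKM (others 5.23 to 5.52 FPKM). In mean log2(FPKM + 1), MHC class I and peptide loading stood at 5.759 in M25, T cell markers at 3.166 and NK and cytotoxic markers at 4.188, above the other high livers, which reached 5.05, 2.12 and 2.49. NRF2 targets and metallothioneins stood at 5.458, below the 5.73 to 5.81 of the others.

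M20 was the lowest of the high livers for Socs3 at 13.3 FPKM (others 32.9 to 49.5 FPKM) and Lcn2 at 26.87 FPKM (others 3482 to 8378 FPKM). Its mean log2(FPKM + 1) was 4.467 for interleukin 6 family signalling (others 4.90 to 5.10) and 4.979 for iron handling (others 5.43 to 5.63). Coq10b was at 12.78 FPKM in M13 (others 16.7 to 19 FPKM).

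Among the low livers, M7 was the highest for Irf1 at 33.74 FPKM (others 10.3 to 12.3 FPKM), Tap1 at 19.45 FPKM (others 7.89 to 8.62 FPKM) and Fgg at 14820 FPKM (others 10061 to 10738 FPKM). M24 was the lowest for RT1-S3 at 21.85 FPKM (others 113 to 153 FPKM) and for 2 erythroid and blood markers (1.175, others 1.46 to 1.51), and the highest for cell cycle genes (3.744, others 1.09 to 1.54). M11 was the lowest for interleukin 6 family signalling (4.678, others 5.45 to 5.60).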

How the results depend on the processing

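No called gene that the text names changed direction under any alternative run. Calls numbered 46 higher and 25 lower; a pseudocount of 0.1 gave 65 and 33, no filter 46 and 26, median-of-ratios scaling 42 and 26. At least 1.5-fold gave 94 and 61 by construction. Without the 3 libraries of M18 to M20, 182 and 77 were called, as fewer libraries overlap less often. Without scaling between libraries 82 were called higher and 8 lower, as that scaling differs between the sets (0.953 to 1.41 in high and 0.783 to 1.08 in low livers). Leaving out 1 library at a time gave 44 to 124 higher and 26 to 58 lower calls. Among single genes, 909 recomputed differences stayed within their spread and 60 moved. The number of genes that move with the interferon score among pre-transplant livers was 0 (limma) under every alternative run but 1: with the score of 4 markers it was 768, among them Lcn2, Cd74 and RT1-N3, and the cause was not tested. With macrophage markers as a further term 0 passed, and among long-term survivors 0 under each alternative run. No paired analysis was possible because the replicate numbers were given in accession order and the labels share none between groups. FPKM of low genes rest on few reads, so small differences in them were not detectable. The alternatives without scaling, without M20 and M25 together, without both columns headed M16 and with macrophage markers were chosen after seeing the data.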
